A study of Mus musculus with 10 samples.

Results

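The Notch ligands, receptors and targets described here are 9 genes, chosen by symbol: the receptors Notch1, Notch2 and Notch3, the ligands Jag1 and Jag2, and the target genes Hes1, Hey1, Hey2 and Heyl. All 9 were among the 23234 gene symbols of the table. The table covers 10 RNA-seq libraries of mouse ovarian follicle cells. C57BL/6 mice gave cumulus cells, which enclose the oocyte, at 2 months (n = 3) and at 10 months of age (n = 3). They also gave mural granulosa cells, the outer layer of the follicle, at 2 months (n = 2), and the protocol names donors primed with the gonadotropin eCG for these. Whole cumulus-oocyte complexes (COC), which hold the oocyte with its cumulus cells, came from mice aged 3 weeks primed with PMSG, another name for eCG, with 1 library from BDF1 and 1 from DBA/2 mice. The sources used here do not say whether cumulus donors were primed, so cell type and priming cannot be told apart between mural and cumulus cells. The protocol gives 1 medium with milrinone, a phosphodiesterase inhibitor, for every group. The labels name no manipulated gene, and they do not say whether replicates came from separate animals or pools, so the p-values below speak of the spread among libraries alone.

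Notch receptors are cell surface proteins that are activated by ligands on a neighbouring cell. Jagged and Delta-like ligands bind the receptor, ADAM proteases and then gamma-secretase cut it, and the freed intracellular part joins RBPJ and a Mastermind protein at target genes. Hes and Hey genes are the best known targets and encode transcriptional repressors. In the mouse ovary the pathway is known from the formation of follicles, where Jag1 is made by germ cells and Notch2 by granulosa cells.

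The promoter of Hey2 is shown because Hey2 was the target with the highest level in mural cells and because its window holds the core motif of RBPJ in 2 places. That motif is GTGGGAA. An N box, CACNAG, and an E box, CACGTG, which Hes and Hey proteins are known to bind, were searched too, all on both strands. The sequence is the RefSeq window chr10:30842734-30843033 of build GRCm38.p6 on the minus strand, from 250 bases before to 50 bases after the gene's start, written 5′ to 3′ with the motif in capitals. The authors' values were made on another build, mm9.
Hey2: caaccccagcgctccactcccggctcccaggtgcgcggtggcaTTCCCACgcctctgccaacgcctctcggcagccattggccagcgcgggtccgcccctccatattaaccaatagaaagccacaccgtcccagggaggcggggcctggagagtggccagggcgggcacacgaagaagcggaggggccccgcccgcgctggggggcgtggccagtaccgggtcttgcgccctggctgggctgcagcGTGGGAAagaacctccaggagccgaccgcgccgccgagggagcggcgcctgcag
The matches cover bases 44 to 50, read on the opposite strand, and bases 247 to 253, which span the start. They do not overlap. Of 32851 promoter windows of this length, 6.38% held the motif on either strand and 0.256% held it at least 2 times. As the Hey2 window was chosen partly for its 2 matches, these shares are background and no test of it. The Hey2 window has 72.0% G and C, against a median of 52.7% over all windows. RefSeq windows were matched for 6 of the 9 members. The other targets, Hes1, Hey1 and Heyl, had no window and were not searched, so Hey2 is not set against another target. The RBPJ core had no match in the windows of Notch1, Notch2, Notch3, Jag1 and Jag2. The N box, held by 42.5% of all windows, had matches in those of Notch1, Notch2 and Notch3 and none in the other three, and the E box, held by 7.15%, had none in the 6. A match is a description of the letters and not a binding site.

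Granulosa markers were high throughout, and some libraries stood apart in the markers of their label. Each of 8 granulosa markers stood at 22.8 FPKM or more in every library (FPKM scales the fragments of a gene by transcript length and by all fragments mapped in the library), and the 5 mural markers summed to 1615 and 3302 FPKM in the mural libraries, against 35.1 to 56.6 in cumulus cells at 2 months. In cumulus cells at 10 months they summed to 50.1, 315 and 950 FPKM, so replicates 2 and 3 lay above the other cumulus libraries. The 3 cumulus markers summed to 554 FPKM or more in every cumulus library and the BDF1 complexes and to 141 to 294 in mural cells, and the DBA/2 complexes fell in the mural range at 271 FPKM. Libraries differed in RNA of other cell types. Oocyte markers summed to 181, 1.59 and 962 FPKM in replicates 1, 2 and 3 of 2-month cumulus cells, and 7 of the 10 were at 0 in replicate 2. Cumulus replicate 3 at 10 months had the highest sums of mural, surface epithelium (106 FPKM) and immune markers (76.7 FPKM) among the cumulus libraries. In bulk samples, fewer cells of a type and less RNA per cell cannot be told apart.

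Notch2 was the main receptor transcript in every library, and Hey2 and Heyl were the main target transcripts in all but 1. Notch2 held 91.0 to 95.1% of the summed FPKM of the 3 receptors in the 3 cumulus libraries at 2 months, replicates 1 and 2 at 10 months and both complexes. It held 84.6% in cumulus replicate 3 at 10 months and 72.3 and 57.7% in mural replicates 1 and 2. Among the 4 targets, Hey2 held 42.8 to 49.4% of the summed FPKM in 2-month cumulus cells, 30.4 to 39.7% in 10-month ones, 78.2 and 72.2% in mural cells, and 44.0 and 53.3% in the BDF1 and DBA/2 complexes. Hes1 held more than either of them in cumulus replicate 2 at 10 months, at 34.9%.

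**Figure D1:**
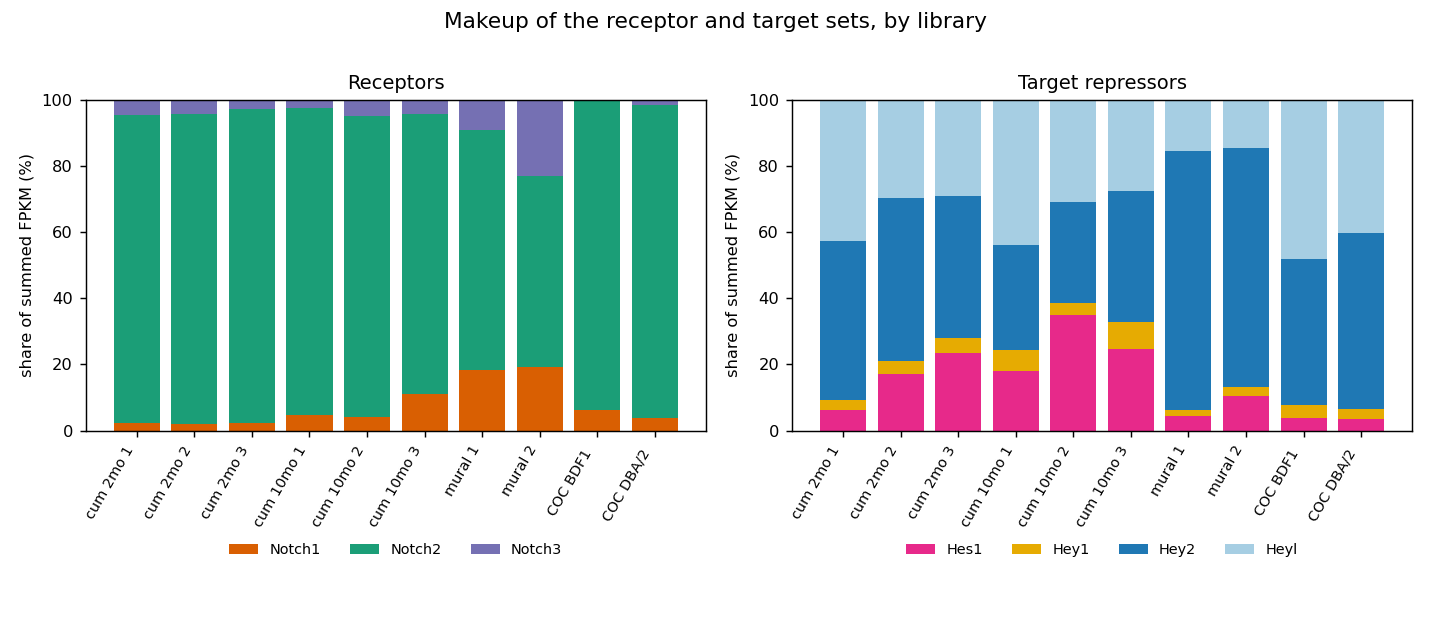
Share of the summed FPKM (%, y axis) held by each receptor (left) and each target (right), with 1 bar for each of the 10 libraries (x axis; cum, cumulus; mo, months). Notch2 fills 93.1 to 95.1% of the receptor bars of cumulus cells at 2 months and of the complexes, and Hey2 fills 78.2 and 72.2% of the target bars of mural cells.

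Among the receptors, Notch2 stood between 6.40 and 12.3 FPKM in the 10 libraries, and Notch1 and Notch3 at 2.59 FPKM or less. Notch2 had 7.43, 8.24 and 8.02 FPKM in replicates 1, 2 and 3 of 2-month cumulus cells, 11.6, 7.41 and 12.3 at 10 months, 7.07 and 6.46 in mural cells, and 7.67 and 6.40 in the BDF1 and DBA/2 complexes. The mural libraries lay below every cumulus library, and replicates 1 and 3 at 10 months lay above all others. From high to low the group means ran from cumulus at 10 months over cumulus at 2 months and BDF1 complexes to mural cells and DBA/2 complexes, and the ranges of the first 3 overlapped from neighbour to neighbour. The difference between mural and cumulus cells at 2 months was -0.20 on the log2(FPKM + 1) scale (95% interval -0.69 to 0.29, limma adjusted p = 0.545), and that between ages was 0.34 (-0.10 to 0.78, adjusted p = 0.478). On this scale a fold change of a low gene is understated.

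Notch1 stood at 0.191, 0.178 and 0.189 FPKM in cumulus cells at 2 months, 0.586, 0.333 and 1.61 at 10 months and 1.80 and 2.14 in mural cells. The BDF1 and DBA/2 complexes stood at 0.516 and 0.263 FPKM. Both mural libraries lay above all others, and every cumulus library at 10 months lay above every cumulus library at 2 months. Notch3, a receptor known from vascular smooth muscle, stood at 0.357, 0.375 and 0.226 FPKM in cumulus cells at 2 months and 0.322, 0.399 and 0.643 at 10 months. In mural replicates 1 and 2 it stood at 0.909 and 2.59 FPKM, in the DBA/2 complexes at 0.105, and in the BDF1 complexes it was listed at 0. Mural cells were again the highest, and the ranges of the cumulus groups overlapped.

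Notch1 and Notch3 had a mean FPKM under 1 over the 8 C57BL/6 libraries, the minimum for the test, so 7 of the 9 members were tested. With no minimum, 14.4% of 18863 genes passed an adjusted p of 0.05 between mural and cumulus cells at 2 months, 7.94% as higher in mural cells. Both receptors were among them in that fit (Notch1 log2 difference 1.32, limma adjusted p = 0.0216; Notch3 0.99, adjusted p = 0.0445). Without mural replicate 2 neither passed (limma, Notch1 1.24, adjusted p = 0.143, and Notch3 0.53, adjusted p = 0.127). Notch1 also missed without mural replicate 1 (1.40, limma adjusted p = 0.0916) and without each cumulus library at 2 months in turn (0.0645 to 0.0720). Notch3 missed without each of the 6 cumulus libraries in turn (limma adjusted p = 0.0592 to 0.119). Between ages 0% of the 18863 genes passed, and the log2 differences were 0.57 for Notch1 (limma adjusted p = 0.430) and 0.14 for Notch3 (0.862). Marker lists of endothelial cells and of smooth muscle and pericytes followed these receptors in part. The 12 endothelial markers summed to 42.3 and 98.5 FPKM in mural replicates 1 and 2, to 11.8, 15.3 and 33.3 in cumulus cells at 10 months and to 7.18 to 9.31 at 2 months, where 3 to 5 of the 12 were at 0 in a library. The 8 smooth muscle and pericyte markers summed to 29.1 and 51.8, 17.7 to 29.2 and 7.23 to 11.1 FPKM in the same order. All 12 endothelial markers and 4 of the 8 smooth muscle and pericyte markers were higher in both mural libraries than in every cumulus library at 2 months, and the other 4 overlapped. Of all genes tested, 25.6% were higher in this way. The genes tested include 8 of the 12 endothelial and 4 of the 8 smooth muscle and pericyte markers, whereas these counts cover every marker. Between ages 5 of the 12 and 3 of the 8 were higher in every library, against 8.93% of all genes tested, and the rest overlapped. Mural replicate 2 and cumulus replicate 3 at 10 months, the highest of their groups in both lists, were also the highest of their groups in Notch1 and Notch3. They were the highest of their groups in mural granulosa markers too. Not all values followed. Notch1 was higher in replicate 1 than in replicate 2 at 10 months, though the endothelial sum of replicate 1 was lower. In the BDF1 and DBA/2 complexes the endothelial sums were 13.6 and 16.4 FPKM, above every 2-month cumulus library. There Notch3 lay below every 2-month cumulus library and Notch1 above. The part of other cell types in the receptor levels was not tested.

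**Figure D2:**
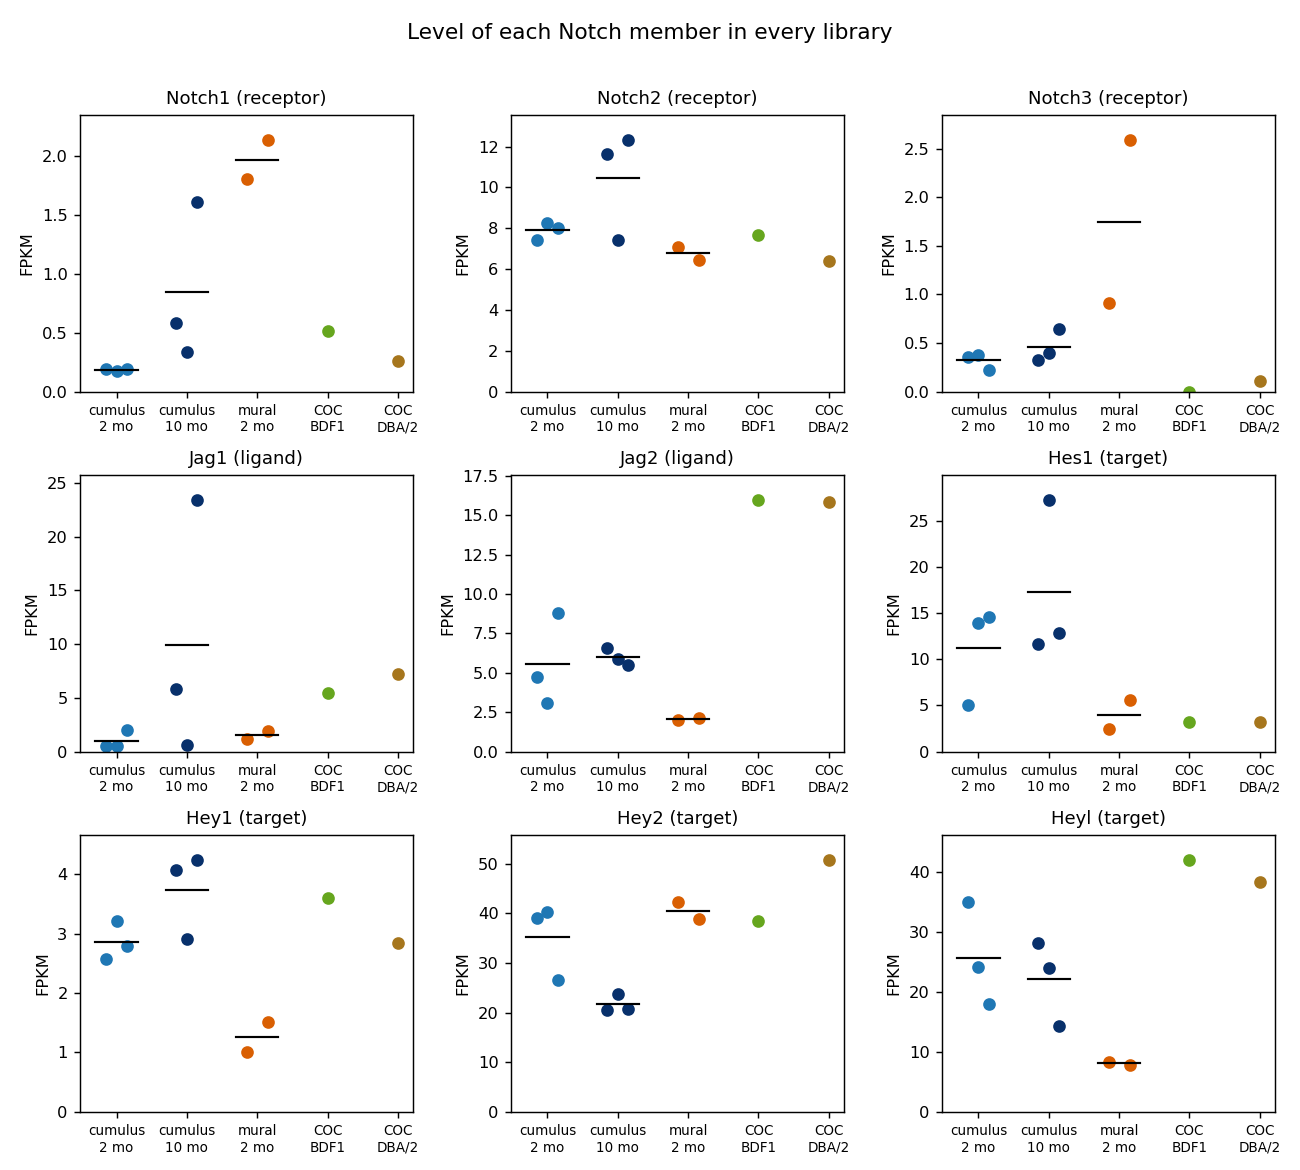
FPKM (y axis, linear from 0, with its own range in each panel) of the 9 members in every library, by group (x axis; mo, months), with a point for each library and a line at the mean of groups with replicates. Heyl and Hey1 are lower in both mural libraries than in any cumulus library, Jag2 and Heyl are highest in the 2 complexes, and Jag1 spreads from 0.653 to 23.4 FPKM in cumulus cells at 10 months.

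The ligands Jag1 and Jag2, transmembrane proteins that bind Notch receptors on the next cell, had different patterns. Jag1 stood at 0.485, 0.548 and 2.05 FPKM in cumulus cells at 2 months, 5.83, 0.653 and 23.4 at 10 months, 1.14 and 1.89 in mural cells, and 5.43 and 7.24 in the BDF1 and DBA/2 complexes. Replicates 1 and 3 at 10 months and both complexes were high, and replicate 2 at 10 months lay within the range at 2 months. The difference between ages was 1.77 (95% interval -0.23 to 3.77, limma adjusted p = 0.410). It was 0.81 without replicate 3 at 10 months and 2.75 without replicate 2 (adjusted p = 0.0732). Between mural and cumulus cells it was 0.38 (-1.86 to 2.62, adjusted p = 0.806).

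Jag2 stood at 4.77, 3.07 and 8.81 FPKM in cumulus cells at 2 months and 6.59, 5.90 and 5.50 at 10 months. It stood at 2.00 and 2.16 FPKM in mural cells and at 16.0 and 15.9 in the BDF1 and DBA/2 complexes. The complexes were the highest and the mural libraries the lowest, with no overlap with any cumulus library, while the ranges of the cumulus groups overlapped. The difference between mural and cumulus cells at 2 months was -0.99 (95% interval -1.77 to -0.22, limma adjusted p = 0.0703) and did not pass, and that between ages was 0.19 (-0.50 to 0.88, adjusted p = 0.834). Oocyte markers stood highest in the same libraries: they summed to 2677 and 2563 FPKM in the BDF1 and DBA/2 complexes. Jag2 and these sums had the same order among the 3 cumulus libraries at 2 months. They did not at 10 months, where oocyte markers summed to 238, 131 and 303 FPKM in replicates 1, 2 and 3, or in mural cells, where they summed to 122 and 16.7 FPKM. With the oocyte markers as a covariate the difference between mural and cumulus cells was -0.82 (limma adjusted p = 0.0545), and the part of oocyte RNA in the level of Jag2 was not tested. The difference passed without cumulus replicate 2 at 2 months (-1.29, limma adjusted p = 0.0401) and with quantile normalization (-1.17, adjusted p = 0.0320).

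Of the 4 targets, Heyl and Hey1 were lower in mural than in cumulus cells at 2 months and passed the test, Hes1 did not pass, and Hey2 had a slightly higher mean in mural cells. Across all 12412 genes tested 11.2% passed as lower in mural cells and 9.69% as higher, against 2 and 0 of the 7 tested members. At an unadjusted p of 0.05, 36.8% of genes passed, 16.3% as higher and 20.5% as lower, against 0 of the 7 as higher and 4 as lower (Jag2, Hes1, Hey1 and Heyl). With no minimum FPKM, 2 of the 9 members passed this p as higher (Notch1 and Notch3) and 3 as lower. Of 18863 genes, 2905 then passed as higher and 2633 as lower. With every library rescaled to an equal sum, the higher share of all adjusted calls moved from 46.3 to 64.0%, and no tested member changed its direction. Heyl stood at 35.0, 24.1 and 18.0 FPKM in cumulus cells at 2 months, 28.2, 24.1 and 14.4 at 10 months, 8.36 and 7.86 in mural cells, and 42.1 and 38.4 in the BDF1 and DBA/2 complexes. The mural libraries lay below all others and the complexes above all others, with the cumulus groups overlapping between them. The means were 8.11 ± 0.354 FPKM in mural (SD, n = 2) and 25.7 ± 8.62 in cumulus cells (SD, n = 3), a log2 difference of -1.50 ± 0.33 (SE, limma adjusted p = 0.0192). The call was lost without cumulus replicate 2 at 2 months (adjusted p = 0.0570), mural replicate 1 (0.0947) or mural replicate 2 (0.130), where the difference was -1.52, -1.54 and -1.46.

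Hey1 was the lowest of the 4 targets in every library but the BDF1 complexes, where Hes1 was lower. It stood at 2.56, 3.21 and 2.79 FPKM in cumulus cells at 2 months, 4.08, 2.91 and 4.24 at 10 months, 1.00 and 1.51 in mural cells, and 3.59 and 2.85 in the BDF1 and DBA/2 complexes. The mural libraries lay below the rest, which overlapped. The log2 difference between mural (1.26 ± 0.358 FPKM, SD, n = 2) and cumulus cells at 2 months (2.85 ± 0.328, SD, n = 3) was -0.78 ± 0.22 (SE, limma adjusted p = 0.0415). It was negative under all 20 alternatives in which Hey1 was tested and passed in 8. It missed with libraries rescaled to equal sums (-0.65, adjusted p = 0.109) and without each mural library, each 2-month cumulus library or cumulus replicate 1 at 10 months (adjusted p = 0.0534 to 0.213).

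Hes1 was uneven among replicates. It had 5.06, 13.95 and 14.6 FPKM in replicates 1, 2 and 3 of 2-month cumulus cells, 11.6, 27.3 and 12.9 at 10 months, 2.42 and 5.61 in mural cells, and 3.20 and 3.27 in the BDF1 and DBA/2 complexes. Mural replicate 2 lay above cumulus replicate 1 at 2 months, so these groups overlapped, and both complexes lay below every cumulus library. The log2 difference between mural and cumulus cells was -1.24 (95% interval -2.46 to -0.02, limma adjusted p = 0.132), and that between ages was 0.60 (-0.49 to 1.70, adjusted p = 0.610). The former passed with library weights (-1.47, limma adjusted p = 0.0207) and was -0.76 without mural replicate 1. A list of 8 immediate early genes, which respond within minutes to stimuli and to handling, was uneven in a similar way. It summed to 1200, 2331 and 2587 FPKM in replicates 1, 2 and 3 of 2-month cumulus cells, 1314, 4737 and 2484 at 10 months, 416 and 143 in mural cells, and 655 and 158 in the BDF1 and DBA/2 complexes. The lowest cumulus library of each age and the highest of all were the same by Hes1 and by this list, whereas the mural libraries were in the reverse order. Of the 8, 6 passed as lower in mural than in cumulus cells at 2 months, against 11.2% of all genes. The part of handling in Hes1 was not tested.

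Hey2 was the member with the smallest p between ages. It stood at 39.2, 40.3 and 26.5 FPKM in cumulus cells at 2 months and at 20.5, 23.7 and 20.7 at 10 months. It stood at 42.2 and 38.9 FPKM in mural cells and at 38.4 and 50.7 in the BDF1 and DBA/2 complexes. The 10-month libraries were the lowest of all 10, with no overlap, and the other groups overlapped or lay close. Its mean was 21.7 ± 1.79 FPKM (SD, n = 3) in the older and 35.3 ± 7.67 (SD, n = 3) in the younger cumulus cells, a log2 difference of -0.66 ± 0.18 (SE, unadjusted p = 0.00593), which did not pass over all genes (limma adjusted p = 0.229). Between ages 0% of 12412 genes passed an adjusted p of 0.05 and 13.9% reached an unadjusted p of 0.05, 7.73% as higher and 6.19% as lower at 10 months. Of the 7 tested members 0 passed the adjusted p, and at the unadjusted p 0 were higher and 1 was lower. The groups did not overlap in 17.8% of genes, 8.93% as higher and 8.88% as lower at 10 months, and in 0 and 1 of the 7 tested members. Notch1, which was not tested, was higher at 10 months in this way. The difference in Hey2 was negative under all 21 alternatives, from -0.85 to -0.55, and passed in none (smallest adjusted p = 0.0587). The summed levels of several other marker lists were higher in every 10-month than in every 2-month library. They were 21.0 to 76.7 against 5.23 to 7.61 FPKM for immune, 14.9 to 37.8 against 6.77 to 8.18 for theca and stroma, and 50.5 to 106 against 26.4 to 34.9 for surface epithelium markers. Erythroid sums (20.2 to 96.4 against 13.3 to 18.3 FPKM) and the endothelial and smooth muscle sums above did the same. No marker of these lists passed between ages, and single markers did not all follow: every library was higher for 7 of 8 immune, 4 of 9 theca and stroma, 2 of 7 surface epithelium and 1 of 5 erythroid markers. The part of these cells in Hey2 was not tested. Without cumulus replicate 3 at 10 months, the library with the highest of each of these sums, the difference in Hey2 was -0.63. Replicates 1 and 2 at 10 months, which remained, still lay above every 2-month library in each sum.

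Between mural and cumulus cells Hey2 differed by 0.22 on the log2 scale (95% interval -0.24 to 0.67, limma adjusted p = 0.467), and the difference was positive under every scaling tried. The ratio of Hey2 to Heyl within a library was 5.05 and 4.95 in mural replicates 1 and 2, 1.12, 1.67 and 1.47 in cumulus cells at 2 months, 0.728, 0.985 and 1.44 at 10 months, and 0.913 and 1.32 in the BDF1 and DBA/2 complexes. Both mural libraries lay above all others in this ratio, which was chosen after the values were seen and was not tested. Between ages Heyl differed by -0.20 (-0.89 to 0.48, adjusted p = 0.820) and Hey1 by 0.29 (-0.16 to 0.74, adjusted p = 0.556).

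**Figure D3:**
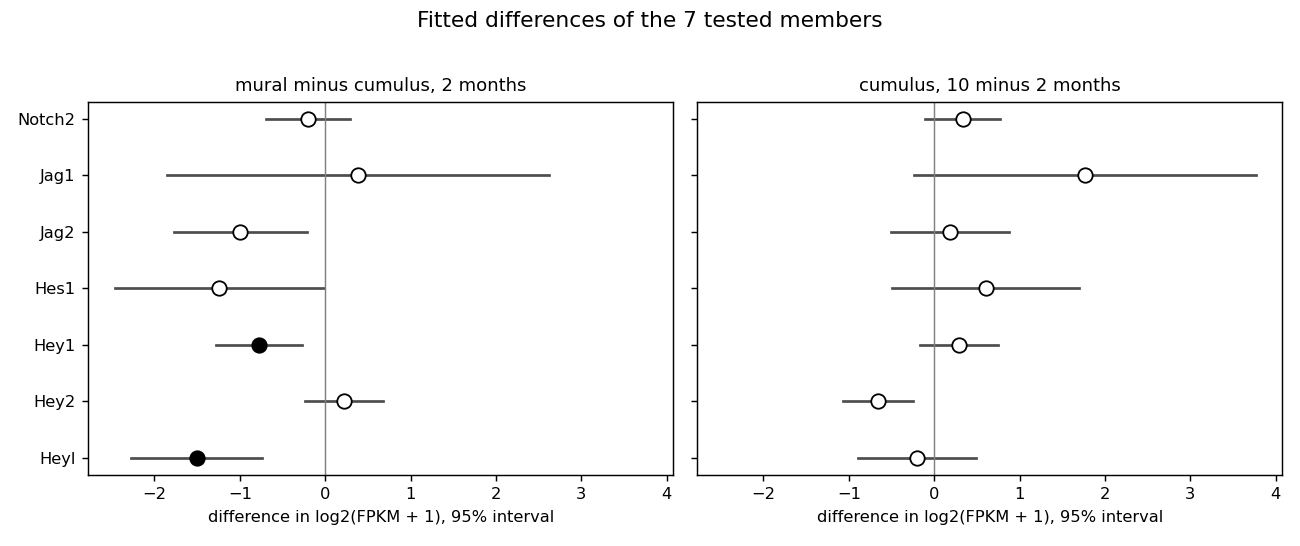
Fitted differences in log2(FPKM + 1) with 95% intervals (x axis) of the 7 tested members (y axis), for mural against cumulus cells at 2 months (left) and for cumulus cells at 10 against 2 months (right). Filled points passed an adjusted p of 0.05: Hey1 and Heyl passed on the left and no member passed on the right.

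Both comparisons use the same 3 cumulus libraries at 2 months. Ranges did not overlap, as lower in mural cells, for Notch2, Jag2, Hey1 and Heyl, 4 of the 7 tested members, against 32.0% of all genes tested. As higher they did not overlap for 0 of the 7, against 25.6% (57.6% in either direction). Notch1 and Notch3, below the minimum for the test, were higher in both mural libraries than in every cumulus library at 2 months. The median log2 difference over the 7 tested members was -0.78 in mural against cumulus cells, where that of all genes was -0.08. Between ages it was 0.29, where that of all genes was -0.02. With no minimum FPKM, which adds Notch1 and Notch3, the member medians were -0.20 and 0.29, and those of all genes -0.01 and 0.

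The complexes had 1 library per strain, also hold the oocyte, and differ from the other groups in strain and age together. Mural donors were primed as well, and the priming of cumulus donors is not stated. The values of the complexes are therefore given without a test. Both complexes lay above every cumulus library at 2 months in 3 of the 7 tested members (Jag1, Jag2 and Heyl) and below in 1 (Hes1), where the shares over all genes tested were 34.1% and 18.3%. Against cumulus cells at 10 months both lay above in 3 of 7 (Jag2, Hey2 and Heyl, 33.1% of genes) and below in 1 (Hes1, 17.8% of genes). Against mural cells both lay above in 4 of 7 (Jag1, Jag2, Hey1 and Heyl, 45.7% of genes) and below in 0 (27.5% of genes). The strains differed by at least 2-fold on FPKM + 1 in 5.74% of genes and in 0 of the 9 members. Hey2 had the largest difference between them, at 0.39 on the log2 scale in favour of DBA/2.

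**Figure D4:**
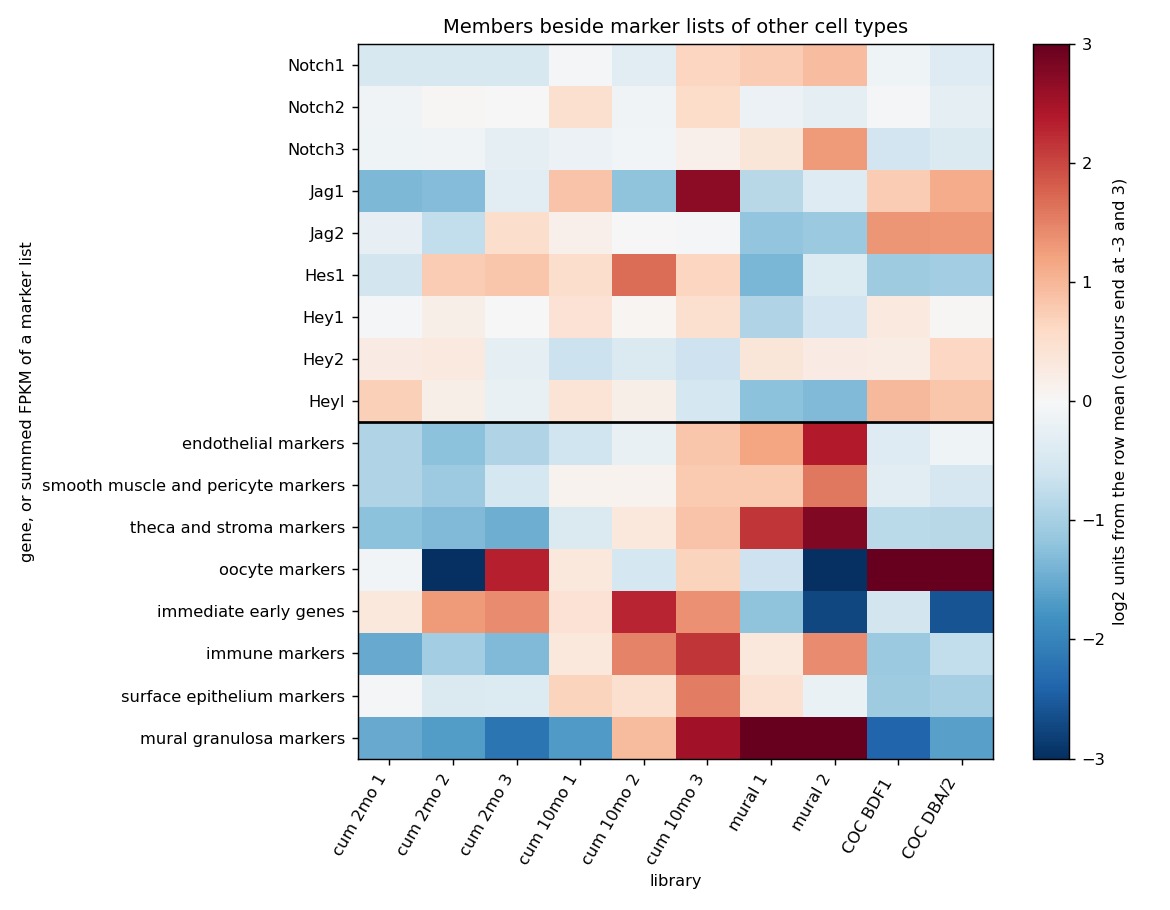
Colour gives each library's distance from the row mean in log2 units, for log2(FPKM + 1) of the 9 members (rows above the line) and for the log2 summed FPKM + 1 of marker lists (rows below), with libraries as columns (cum, cumulus; mo, months). Jag2 and oocyte markers are both highest in the 2 complexes, Notch1, Notch3 and endothelial markers are high in mural cells, and Hes1 and immediate early genes are both highest in cumulus replicate 2 at 10 months.

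A further 58 pathway genes were listed by role, and 41 of them were tested. Between mural and cumulus cells at 2 months, 4 passed as higher and 1 as lower in mural cells, against 20.9% of all genes in either direction, and the median log2 difference was 0.01. Of 9 tested genes of receptor cleavage, 3 were higher in mural cells, all of them parts of gamma-secretase. Psen2, an alternative catalytic subunit, stood at 22.8 and 24.9 FPKM in mural cells and at 12.1, 7.51 and 10.7 in cumulus cells (log2 difference 1.18, limma adjusted p = 0.00838). Ncstn, which holds the substrate, stood at 94.6 and 90.5 FPKM against 57.4, 57.3 and 49.9 (0.75, adjusted p = 0.00813). Aph1b stood at 3.92 and 3.73 FPKM against 1.52, 1.45 and 1.92 (0.88, adjusted p = 0.0363), and it is uncertain because its copy Aph1c is near-identical. Ranges did not overlap in these 3 genes. Of the 41 genes 14 were higher and 8 lower in every mural library, beside 25.6% and 32.0% of all genes. Without mural replicate 2 none of them passed (limma adjusted p = 0.0724 to 0.154), and without mural replicate 1 Ncstn (0.0544) and Aph1b (0.152) did not. Aph1b also missed without cumulus replicate 1 or 2 at 2 months (limma adjusted p = 0.0843 and 0.0940), with a pseudocount of 0.1 (0.0520) and with quantile normalization (0.0694).

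Of 15 nuclear factors and corepressors, 1 passed. Tle2, a Groucho-type corepressor with which Hes proteins act, stood at 63.4 and 70.02 FPKM in mural cells and at 19.4, 11.6 and 11.5 in cumulus cells at 2 months (log2 difference 2.19, limma adjusted p = 0.00549), and at 4.95 and 5.82 in the BDF1 and DBA/2 complexes. It missed without mural replicate 2 (2.12, limma adjusted p = 0.0650). Rbpj, the DNA-binding partner of the receptor, stood at 20.4, 23.1 and 20.4 FPKM in 2-month and 17.8 to 22.5 in 10-month cumulus cells, 17.9 and 18.9 in mural cells, and 28.4 and 31.1 in the complexes (mural against cumulus -0.20, adjusted p = 0.371, and 0.0057 with libraries rescaled to equal sums). Among 3 tested further targets, Bhlhe40, a repressor of the same protein class with many inducers, was lower in mural cells, at 9.73 and 15.5 FPKM against 20.3, 30.8 and 28.0 (-1.02, limma adjusted p = 0.0226). The call was lost without either mural library or without cumulus replicate 2 or 3 at 2 months (limma adjusted p = 0.0600 to 0.1495), and with libraries rescaled to equal sums (0.0648). No gene passed among those tested for ligand endocytosis (2), sugar modification (3), receptor turnover (8) and further ligands (1).

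Of the further receptor and ligands, Dlk1, a membrane protein related to the Delta-like ligands, was the only gene tested and is named here after its values were seen. It stood at 3.32, 4.73 and 2.43 FPKM in cumulus cells at 2 months, 8.09, 7.77 and 1.65 at 10 months, 0.122 and 0.589 in mural cells, and 0.207 and 0.208 in the complexes (mural against cumulus -1.72, limma adjusted p = 0.0586). Notch4, an endothelial receptor, stood at 0.707 and 1.56 FPKM in mural cells, 0.142 to 0.633 in cumulus cells at 10 months and 0.0308 to 0.162 at 2 months. Dll4, a ligand known from endothelial tips, stood at 0.464 and 1.80 FPKM in mural cells and at most at 0.0491 in cumulus cells at 2 months. Dll1 stood at 0.623 and 0.528 FPKM in mural cells, 0 to 0.148 in cumulus cells at 2 months and 0.0564 to 0.343 at 10 months. It was listed at 0 in both complexes. Lfng, which adds sugars to the receptor, was listed at 0 in all 3 cumulus libraries at 2 months and stood at 0.262 to 0.620 FPKM at 10 months. It stood at 0.0805 and 1.09 FPKM in mural cells and was listed at 0 in both complexes. Its difference between ages did not pass in the fit with no minimum FPKM (0.55, limma adjusted p = 0.429). Of all genes tested, 8.93% were higher in every 10-month library. Hes5 was listed at 0 in all 10 libraries, and Nrarp, a feedback inhibitor, was at most 1.35 FPKM. With no minimum FPKM, 7.94% of 18863 genes passed as higher in mural than in 2-month cumulus cells. Dll1 (log2 difference 0.56, limma adjusted p = 0.0231) and Notch4 (0.92, adjusted p = 0.0314) were among them. Dll4 (1.00, adjusted p = 0.0740), Nrarp (0.73, adjusted p = 0.0576) and Lfng (0.59, adjusted p = 0.180) were not. Between ages 0 of the 41 tested genes passed, and 4 reached an unadjusted p of 0.05, all with higher means at 10 months (limma), against 13.9% of all genes in either direction and 7.73% as higher. They were the corepressor genes Tle3 and Tle4, the receptor inhibitor Numb and Bhlhe40, named after their values were seen, with log2 differences of 1.495, 0.67, 0.53 and 0.83 (limma adjusted p = 0.198 to 0.352).

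**Figure D5:**
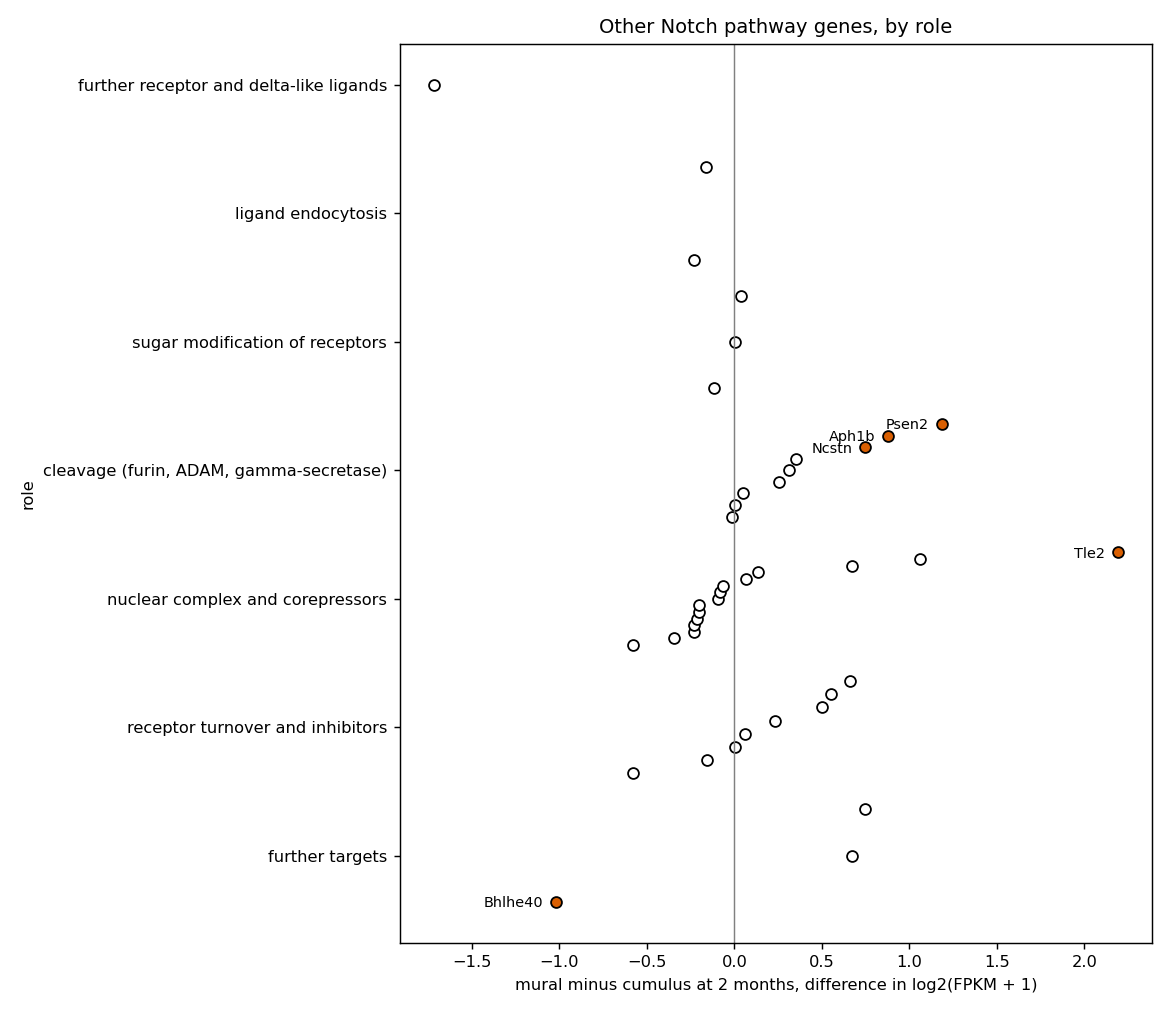
Difference in log2(FPKM + 1) between mural and cumulus cells at 2 months (x axis) for the 41 tested pathway genes, by role (y axis), with a point for each gene. Filled points passed an adjusted p of 0.05 and are named: Psen2, Ncstn, Aph1b and Tle2 lie to the right of 0 and Bhlhe40 to the left.

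The genes most like each member were found by Pearson's r of log2(FPKM + 1) over the 10 libraries. These points share the makeup of each library in cell types, and r is given as a description. For Jag2 they were Thap1 (0.99), Uchl1 (0.99), a ubiquitin hydrolase abundant in oocytes, and Rbm38 (0.98). For Hes1 they were the immediate early receptor gene Nr4a1 (0.97), Ppp1r15a (0.96) and the kinase gene Sik1 (0.95). For Heyl they were Arhgdia (0.98), G3bp1 (0.98) and Keap1 (0.98), and for Hey2 they were Cog7 (0.95), Derl2 (0.94) and Snx19 (0.94). For Notch2 they included Gclc (0.96), an enzyme of glutathione synthesis, and Abhd2 (0.95), and for Jag1 they were Pdcd6ip (0.96), Spag9 (0.96) and Bmp2k (0.96).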

How the data were processed

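The authors deposited 1 table of FPKM values for 10 libraries. The submitters' processing notes name TopHat2 2.1.0, Cufflinks 2.1.0 and the genome build mm9. The sources used here do not give annotation, strandedness or depth. Cufflinks values are estimates, so counts were not recovered, no counting interval is given, and depth limits low values by an unknown amount. The sums per library ran from 470377 to 603460 FPKM. A repeated header line was dropped. No label names a batch.

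Genes with a mean of at least 1 FPKM over the 8 C57BL/6 libraries (12412) were fitted as log2(FPKM + 1) with a term per group in limma 3.58.1 (R 4.3.3, intensity trend, 5 residual degrees of freedom), with two-sided Benjamini-Hochberg adjustment over all of them at 0.05. The fit was tested on simulated data. The members and lists were chosen with earlier results of these data known. All 9 members are named; of other pathway genes, Notch4, Dll1, Dll4, Rbpj, Lfng, Hes5, Nrarp and up to 4 per role that passed; of genes alike, 3 per member with a mean of at least 5 FPKM in any replicated group (1 is not reported here). Alternatives changed pseudocount, filter, scaling, samples, weights, trend and block. Marker lists also covered erythroid (7.80 to 124 FPKM) and cumulus genes (141 to 964 FPKM).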

Additional observations from a re-analysis of the deposited data

How the results depend on the processing

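Directions of the 7 tested members were kept under every alternative for mural against cumulus cells. Between ages, with single libraries left out, Jag2 ran from -0.11 (without cumulus replicate 2 at 2 months) to 0.53 and Heyl from -0.42 to 0.070 (without cumulus replicate 3 at 10 months, and 0.04 without cumulus replicate 1 at 2 months), neither with a call to lose. Rbpj turned from -0.20 to 0.0057 between mural and cumulus cells with rescaling. The number of members passing between mural and cumulus cells (2) was 1 with a minimum mean FPKM of 5, median centring, rescaling, the oocyte covariate or both cumulus replicate 3 libraries left out, the last 2 added after seeing the data. It was 3 with quantile normalization, library weights or no filter, the last with 2 higher (Notch1 and Notch3) and 1 lower. It was 0 to 2 when libraries were left out singly, and 0 without either mural library, where the lone library is assumed to vary like the other groups. Over all genes the 2599 calls were 5425 with library weights and 99 to 3253 without single libraries. Between ages 0 calls became 69 with library weights, 7 without both cumulus replicate 3 libraries and 0 to 245 without single libraries, the highest without cumulus replicate 2 at 10 months. Of the pathway genes, the 4 higher in mural cells were 10 with no filter, 8 with rescaling, 11 with library weights and 0 to 5 without single libraries. The 1 lower was 2 with pseudocounts of 0.1 or 0.5, the 2 groups alone, the oocyte covariate or the replicate block, 3 with library weights, 0 with rescaling and 0 to 2 without single libraries. Between ages 1 passed as higher with library weights. Rescaling moved the median difference of all genes between mural and cumulus cells from -0.08 to 0.11 and the share of calls that were higher from 46.3 to 64.0%.

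Whether replicate numbers pair the samples was not settled, as the correlations were low and mixed. With group means removed, same-numbered cumulus libraries of the 2 ages correlated at 0.01, 0.12 and 0.15. Replicate 1 at 2 months correlated better with another number (0.04), whereas the other same-numbered pairs were the best for their 2-month library. Same-numbered cumulus and mural libraries at 2 months correlated at 0.03 and 0.21, and older cumulus libraries with mural ones at 0.05 and -0.05. With the replicate block 3361 genes and 2 members passed between mural and cumulus cells (Hes1 adjusted p = 0.0371, Hey1 0.0766, limma), and 0 between ages.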
